A study of Ricinus communis with 18 samples.

Results

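Roots of castor (Ricinus communis), an oil crop, were compared after 3 days with and without 15% PEG-6000 in their surroundings. PEG-6000 is a polymer too large to enter root cells. It lowers the water potential outside the root, so that water uptake is held back while the tissue stays in place. The groups compared were 3 libraries of whole root systems under PEG for 3 days and 3 libraries of untreated root systems of the same day, and all genes with enough counts were described by their product name and KEGG pathway. The study holds 18 libraries in 6 groups of 3, the others being untreated and PEG roots of 7 days and untreated and rehydrated roots of 11 days. The labels give no genotype, plant age or number of plants per library. They also do not tell whether each library is its own plant or pool, so the p-values cover only how far these libraries differ, and part of that may be technical.

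Roots that meet a lower water potential keep their cells turgid by holding solutes, change the rate of cell division and wall expansion at the tip, and change which ions, nitrogen compounds and sugars they take up. Receptor kinases, calcium sensors, mitogen-activated protein kinases and hormones carry the signals, and ubiquitin ligases mark regulatory proteins for breakdown. Sugars and amino acids serve both as solutes and as fuel for respiration.

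Of 21332 genes in the table, 16085 (75.4%) passed the filter on low counts and were tested. Totals ran from 8131990 to 8755081 counts in the control libraries and from 8569512 to 10817476 in the PEG libraries. The 100 most abundant genes took 25.9 to 27.7% of the counts of a control and 30.0 to 30.4% of those of a PEG library. Libraries were therefore scaled by TMM, which set factors of 1.04 to 1.099 for the controls and 0.765 to 0.806 for the PEG libraries. Deposited levels are FPKM, scaled by library totals and gene length, and log2 changes are TMM-scaled, so a fitted fold is larger upward and smaller downward than the ratio of the FPKM values printed beside it. The controls did not stand equally far from the PEG libraries. Control library 2 correlated at 0.889 and 0.912 with PEG libraries 2 and 3 and at 0.872 with control library 1. Its highest correlation was 0.934, with control library 3, and with PEG library 1 it was 0.865. Control library 1 and PEG library 2 correlated at 0.751. These are Pearson correlations of log2 counts scaled to library size over the 16085 tested genes, given as a description.

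Under PEG 1883 genes were higher and 1828 lower at an edgeR quasi-likelihood adjusted p below 0.05 (Benjamini-Hochberg), which is 11.7% and 11.4% of the genes tested and 23.1% together. Of these, 1480 higher and 1451 lower genes changed at least 2-fold, 490 and 523 at least 4-fold, and 49 and 62 at least 16-fold. The 3 PEG libraries lay wholly above or below the 3 controls for 1752 of the higher and 1727 of the lower genes, and for 5788 of all genes tested (36%). Genes called higher were already abundant, with a median control level of 19.0 FPKM against 8.73 FPKM for all genes tested, and their median was 37.8 FPKM under PEG. Those called lower had a median of 8.73 FPKM in controls and 2.20 FPKM under PEG. The genes called higher held 13.9, 20.4 and 19.1% of the counts of the control libraries and 34, 42.7 and 37.1% of the counts of the PEG libraries, a description of genes chosen for that change. The genes called higher were also short, with a median length of 1252 bases against 2176 bases for those called lower. In the shortest decile of genes by length 385 were higher and 45 lower, with a median log2 change of 0.58. In the longest decile 37 were higher and 355 lower, with a median of -0.51.

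The share called in each direction depends on scale and on single libraries. Library totals in place of TMM moved the median log2 change of all genes from -0.08 to -0.52 and gave 912 higher and 4159 lower genes. Removal of the trend with gene length gave 1820 and 1356, and a fit of the 6 libraries of 3 days alone gave 682 and 603. Without control library 1 the numbers were 885 and 1015, without PEG library 2 they were 1090 and 1017, and without PEG library 3 they were 1378 and 1192. Counts of genes higher and lower in a gene list are followed by the counts with library totals, from the 6 libraries alone, without the length trend and without each library. List counts are to be read beside the 11.7% higher and 11.4% lower among all genes tested. Of 295 genes named by rule for the comparison, 149 kept their call at the threshold of 0.05 under every alternative fit and 120 lost it in the fit of 6 libraries. All 295 were chosen as called genes whose groups did not overlap in TMM-scaled counts, so their lack of overlap is no further result. A call lost with library totals, without the length trend or without a library is given beside the gene. Losses in the fit of 6 libraries are not marked there. Calls lost in that fit alone include those of the translationally controlled tumor-like gene, cytoplasmic fructose-bisphosphate aldolase and the aquaporin ncbi_8270440. They also include those of chitinase 3, the sugar transport protein gene ncbi_8259103, beta-amyrin synthase-like and squalene synthase-like. Every gene said to rise or fall passed the edgeR test, and a bare bracketed value is its log2 change ± SE.

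**Figure D1:**
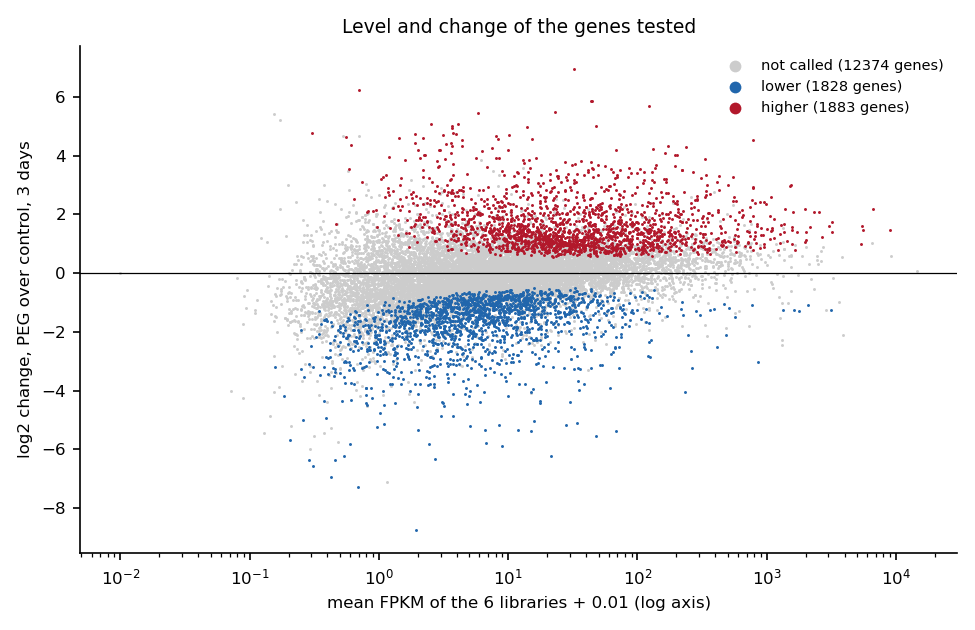
Each point is 1 of the 16085 genes tested, with the mean FPKM of the 6 libraries plus 0.01 on a log axis and the fitted log2 change of PEG over control at 3 days. The 1883 genes called higher had a median control level of 19.0 FPKM and the 1828 called lower one of 8.73 FPKM.

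The most abundant transcripts changed in both directions, and genes like ARG2 and like the translationally controlled tumor protein gained the most FPKM among called genes changed at least 2-fold. An ARG2-like gene (ncbi_8259886), named for an auxin-induced gene of mung bean, stood at 3152, 3043 and 2954 FPKM in the control libraries and 10936, 7878 and 11509 FPKM in the PEG libraries (log2 change 2.17 ± 0.3, edgeR adjusted p = 0.000381). All PEG libraries lay above 2 times the highest control. It held rank 16 among the transcripts of control roots by mean FPKM and rank 3 under PEG. The translationally controlled tumor-like gene (ncbi_8278734), for a conserved protein tied to growth, went from 5265, 5093 and 7569 FPKM in the controls to 8032, 13686 and 14617 FPKM under PEG (log2 change 1.46 ± 0.31, edgeR adjusted p = 0.00447), and its lowest PEG library was close to its highest control. Cytoplasmic fructose-bisphosphate aldolase (ncbi_8288389), an enzyme of glycolysis, rose from 3369 ± 1027 to 7533 ± 3188 FPKM (mean ± SD, n = 3; 1.61 ± 0.37). Further gains were those of early nodulin-93-like (ncbi_8275846, 1.75 ± 0.34), blue copper protein-like (ncbi_8270218, 2.08 ± 0.35), a secreted electron carrier, FRIGIDA-ESSENTIAL 1-like (ncbi_8258441, 1.6 ± 0.35) and a TSJT1-like gene (XLOC_001908, 2.96 ± 0.47). A second TSJT1-like gene (ncbi_8279478) had 159, 1027 and 158 FPKM without PEG and 4138, 1642 and 2142 FPKM with it. Control library 2 stood far above the other controls there, and its call was lost without control library 1 and without control library 3.

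Among the 10 largest losses of level were genes for a wall protein, a nitrate transport partner, a water channel and a proton pump. A proline-rich extensin-like gene (ncbi_8270508) of the cell wall fell from 5644, 2879 and 5856 FPKM in the controls to 1637, 925 and 1853 FPKM under PEG (log2 change -1.27 ± 0.37, edgeR adjusted p = 0.0243), with no overlap, although the call was lost without control library 1, control library 3 or PEG library 2. High-affinity nitrate transporter 3.1-like (ncbi_8278271), the partner protein that nitrate transporters of the NRT2 family need in Arabidopsis, stood at 2645, 3022 and 3606 FPKM in the control libraries and 1307, 787 and 1151 FPKM in the PEG libraries (log2 change -1.08 ± 0.27, edgeR adjusted p = 0.0105). Its call was lost without PEG library 2. Plasma membrane ATPase 4 (ncbi_8286312), the proton pump that drives uptake, fell from 834, 824 and 1055 FPKM in the controls to 289, 142 and 281 FPKM under PEG (log2 change -1.5 ± 0.3, edgeR adjusted p = 0.0035). Cationic peroxidase 1-like (ncbi_8269361) fell from 730 ± 321 to 95.8 ± 25.1 FPKM (-2.5 ± 0.32), and an aquaporin (ncbi_8270440), a water channel, from 2731 ± 532 to 819 ± 127 FPKM (-1.3 ± 0.29). For each of these genes the 3 PEG libraries lay below the 3 controls, which the rule for naming them required. In contrast extensin-2-like, the most abundant transcript of both groups, had 21554, 10148 and 17299 FPKM in the controls and 19304, 4261 and 14865 FPKM under PEG, and was not called (0.09 ± 0.43, edgeR adjusted p = 0.898).

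**Figure D2:**
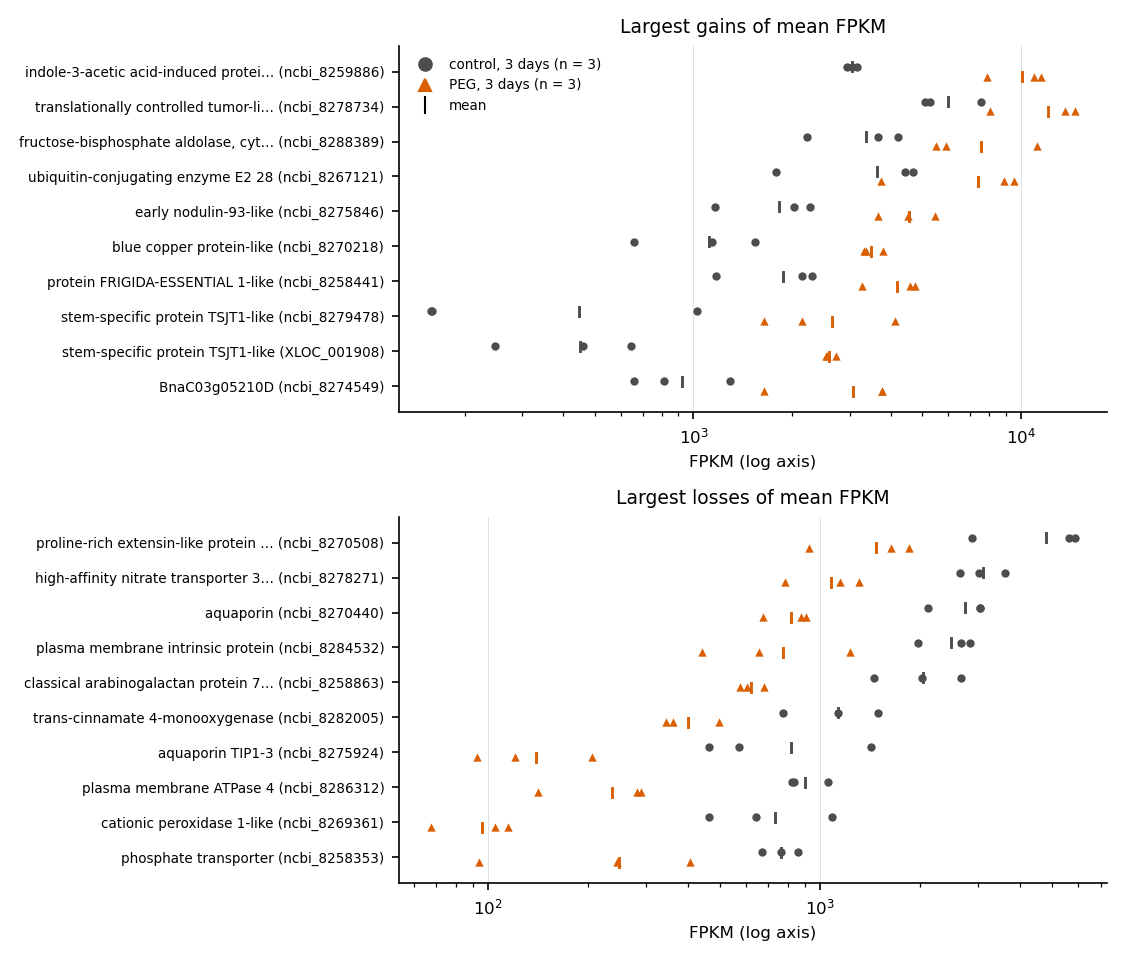
The FPKM of each library on a log axis for the genes with the 10 largest gains and 10 largest losses of mean FPKM among called genes changed at least 2-fold, with circles for the 3 controls, triangles for the 3 PEG libraries and a bar for each mean. ARG2-like rose from a mean of 3050 to 10108 FPKM. Genes were chosen for no overlap between groups in TMM-scaled counts, plasma membrane ATPase 4 and cationic peroxidase 1-like among them.

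Of 113 KEGG terms with 10 to 300 tested genes, 3605 tested genes being in any term, the highest medians belonged to antenna proteins (0.85, 3 higher and 0 lower of 15), photosynthesis (0.57, 7 and 1 of 45) and ribosome (0.52, 43 and 3 of 248). They were followed by diterpenoid biosynthesis (0.50, 3 and 5 of 19), alpha-linolenic acid metabolism (0.48, 7 and 1 of 34), arachidonic acid metabolism (0.45, 2 and 1 of 11), porphyrin and chlorophyll metabolism (0.40, 8 and 3 of 41) and regulation of autophagy (0.35, 9 and 1 of 34). The lowest medians were those of other glycan degradation (-1.33, 0 higher and 7 lower of 22), ABC transporters (-1.05, 0 and 5 of 18), zeatin biosynthesis (-0.93, 1 and 2 of 11) and brassinosteroid biosynthesis (-0.77, 0 and 3 of 13). Cutin, suberine and wax biosynthesis (-0.70, 1 and 3 of 14), selenocompound metabolism (-0.69, 1 and 3 of 14), nicotinate and nicotinamide metabolism (-0.65, 0 and 5 of 19) and glycosaminoglycan degradation (-0.64, 1 and 6 of 14) came next. With library totals the ribosome term had 15 higher and 17 lower genes, and without the length trend 16 and 7 with a median of 0.18. With library totals and then with the length trend removed, photosynthesis had 2 and 3 then 2 and 2, and antenna proteins 1 and 0 then 1 and 0. Likewise porphyrin and chlorophyll metabolism had 3 and 5 then 12 and 1, autophagy 4 and 4 then 7 and 1 and alpha-linolenic acid metabolism 4 and 3 then 9 and 1. The other 2 of the highest terms, diterpenoid biosynthesis and arachidonic acid metabolism, had 3 and 6 then 3 and 4, and 2 and 1 then 2 and 0. Of the lowest terms other glycan degradation had 0 and 12 then 0 and 3, ABC transporters 0 and 10 then 2 and 2, zeatin biosynthesis 0 and 4 then 1 and 2 and brassinosteroid biosynthesis 0 and 6 then 0 and 2. Cutin, suberine and wax biosynthesis had 0 and 4 then 0 and 3, selenocompound metabolism 1 and 10 then 1 and 1, nicotinate and nicotinamide metabolism 0 and 9 then 0 and 3 and glycosaminoglycan degradation 0 and 7 then 1 and 4. Antenna protein genes mark leaves and not roots. The 19 leaf markers, 1 of them at 0 in every library, summed to 386 to 1260 FPKM per 1000000 FPKM of the library in controls and 797 to 2059 in PEG roots. Of 16 tested 3 were higher and 0 lower, or 1 and 0 both with library totals and without the length trend. The 6 libraries alone gave 0 and 0, and leaving out 1 library gave 1 to 5 and 0, fewest without control library 1, PEG library 2 or PEG library 3. The tested leaf marker of highest level (ncbi_8264152) was not called, with 42.6, 477 and 217 FPKM in the controls and 224, 1146 and 863 FPKM under PEG. The part of the leaf markers in other results was not tested.

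Cellulose and wall protein genes were lower more often than higher. Of 26 tested cellulose synthase and COBRA genes, which lay down cellulose, 0 were higher and 6 lower (0 and 11 with library totals, and 0 and 4 from the 6 libraries alone). Without the length trend the split was 1 and 4, and with 1 library left out it was 0 to 1 and 4 to 9, with the fewest calls without control library 1. COBRA-like protein 7 (ncbi_8265475) stood at 4.22, 5.56 and 5.32 FPKM in the control libraries and 0.44, 0.74 and 0.86 FPKM in the PEG libraries (log2 change -2.43 ± 0.35, edgeR adjusted p = 0.000417). Cellulose synthase A catalytic subunits 2-like (ncbi_8283166, -2.92 ± 0.75) and 3-like (ncbi_8260150, -1.69 ± 0.5), whose Arabidopsis namesakes build primary walls, also fell, and both calls were lost without control library 1 and without PEG library 2. The call of the 3-like gene was further lost without PEG library 3 and without the length trend. Arabinogalactan and extensin proteins had 3 higher and 12 lower of 78 (2 and 25 with library totals, and 1 and 4 from the 6 libraries alone). The split was 3 and 15 with the length trend removed and 2 to 5 and 6 to 26 over the libraries left out in turn, fewest without control library 1. Leucine-rich repeat extensin-like protein 6 (ncbi_8280867) fell from 141, 129 and 113 FPKM in the controls to 39.3, 12.6 and 26.5 FPKM under PEG (log2 change -1.84 ± 0.36, edgeR adjusted p = 0.00272). Of 24 expansins, which loosen walls, 2 were higher and 3 lower, close to the share among all genes (0 and 6 with library totals, and 0 and 1 from the 6 libraries alone). Removing the length trend gave 1 and 4, and leaving out 1 library gave 1 to 2 and 1 to 5, the fewest without control library 1, PEG library 2 or PEG library 3. Expansin-A8 (ncbi_8259547) went from 204, 45.8 and 155 FPKM in the controls to 5.76, 0.09 and 1.3 FPKM under PEG (log2 change -5.38 ± 1.05, edgeR adjusted p = 0.00297), so that none of its PEG libraries came near a control. Glucanases and chitinases, which cut wall polymers, had 9 higher and 5 lower of 59 (4 and 16 with library totals, and 5 and 3 from the 6 libraries alone). Over the libraries left out in turn the list had 4 to 11 and 3 to 12, the fewest without control library 1, and it had 10 and 4 without the length trend. Endoglucanase 6 (ncbi_8287765) fell from 66.7 ± 36 to 5.08 ± 4.14 FPKM (-3.26 ± 0.79) and glucan endo-1,3-beta-glucosidase 1 (ncbi_8284185) by 2.70 on the log2 scale.

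Other wall enzymes rose, chitinases of the list above among them. Xyloglucan endotransglucosylase/hydrolases cut and rejoin the xyloglucan tethers of the wall, and 3 of 17 were higher and 1 lower (3 and 3 with library totals, and 3 and 0 from the 6 libraries alone). In the fit without the length trend the split was 3 and 2, and it was 2 to 3 and 0 to 3 with 1 library left out, fewest without control library 1, control library 3 or PEG library 2. The probable enzyme 30 of this family (ncbi_8278518) had 23.1, 21.2 and 21.8 FPKM without PEG and 128, 124 and 93.5 FPKM with it (log2 change 2.83 ± 0.29, edgeR adjusted p = 5.45e-05), a tight rise in all 3 libraries. A family 2-like copy (ncbi_8277813) rose by 3.07 ± 0.76 with a wider spread, from 8.99 ± 3.76 to 55.4 ± 40.9 FPKM. Chitinases, which act on fungal walls and on arabinogalactans, rose in a chitinase family protein (ncbi_8277058, 72.7, 112 and 56.7 FPKM in the control libraries and 323, 318 and 288 FPKM in the PEG libraries, 2.39 ± 0.33). Chitinase 3 (ncbi_8282608) stood at 1.56, 47.8 and 2.17 FPKM in the control libraries and 202, 128 and 133 FPKM in the PEG libraries, with control library 2 far above the other controls (3.6 ± 0.97).

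Cytoskeleton genes were also lower more often than higher. Of 120 genes for tubulins, actins, kinesins and their partners, 6 were higher and 23 lower; their median was -0.86 (3 and 45 with library totals, and 2 and 9 from the 6 libraries alone). Leaving out 1 library in turn moved this to 3 to 7 and 10 to 37, fewest without control library 1, and removing the length trend to 5 and 16. A microtubule-associated protein futsch-like gene (ncbi_8281787) fell from 27.8, 22.5 and 16.5 FPKM in the controls to 1.57, 1.57 and 3.02 FPKM under PEG (log2 change -3.0 ± 0.47, edgeR adjusted p = 0.000765), and tubulin beta-2 chain (ncbi_8266452) from 60.1 ± 43.5 to 12 ± 4.33 FPKM (-1.87 ± 0.51, lost without control library 1, PEG library 2 or PEG library 3). Actin depolymerizing factor 4 (ncbi_8265981), which severs actin filaments, went the other way, from 492, 719 and 735 FPKM in the controls to 929, 1784 and 1349 FPKM under PEG (log2 change 1.5 ± 0.27, edgeR adjusted p = 0.00191). Of cyclins and cell division kinases 7.0% were higher and 8.5% lower, both below the shares of all genes. These were 5 and 6 of 71 (4 and 12 with library totals, and 4 and 2 from the 6 libraries alone). With the length trend removed 7 and 3 were called, and 4 to 7 and 3 to 10 with each library left out, fewest without control library 1 or PEG library 2. Cyclin-D1-1-like (ncbi_8281928), of the cyclins that start the cell cycle, stood at 17.8, 19.1 and 17.9 FPKM in the control libraries and 1.53, 1.26 and 3.08 FPKM in the PEG libraries (log2 change -2.78 ± 0.34, edgeR adjusted p = 0.000164), and the 2 groups were far apart. A pair of genes named cell division cycle protein-like rose (XLOC_016266, 4.21 ± 0.55, and XLOC_016263, 2.9 ± 0.4), and so did a minichromosome maintenance gene of DNA replication (ncbi_8286811, 1.39 ± 0.23).

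Several regulators that pattern the root fell. SHORT-ROOT (ncbi_8283369), which in Arabidopsis moves from the stele to specify the endodermis, stood at 28.3, 39 and 44.9 FPKM in the control libraries and 12.8, 9.31 and 10.4 FPKM in the PEG libraries (log2 change -1.35 ± 0.25, edgeR adjusted p = 0.00206). Its partner SCARECROW (ncbi_8283041) fell from 8.07 ± 2.73 to 2.95 ± 0.615 FPKM (-1.01 ± 0.29), with the call lost without control library 1, control library 3, PEG library 2 or PEG library 3 and without the length trend. Both are root markers too. The 16 root markers, 1 of them at 0 in every library, summed to 128 to 209 FPKM per 1000000 FPKM of the library in controls and 36.7 to 74.8 in PEG roots. Of 11 tested 0 were higher and 3 lower (0 and 5 with library totals, and 0 and 1 from the 6 libraries alone). The length trend removed gave 0 and 2, and 1 library left out gave 0 and 2 to 4, fewest without control library 3, PEG library 2 or PEG library 3. The 3 lower ones in the main fit were SHORT-ROOT, SCARECROW and a scarecrow-like gene (ncbi_8276945), all counted again among the GRAS factors below. The Casparian strip membrane and root hair genes tested were not called. Phloem markers summed to 117 to 178 and 55.1 to 64.4 on that scale, secondary wall cellulose synthases of the xylem to 14.2 to 56.5 and 0.92 to 32.5, and laccases to 628 to 887 and 298 to 1164. The part of these tissues in the results was not tested. In these bulk samples fewer cells of a type and less RNA per cell cannot be told apart. WUSCHEL-related homeobox 4 (ncbi_8288579), a regulator of the cambium in Arabidopsis, went from 7.39, 4.01 and 7.9 FPKM in the controls to 0.9, 0.4 and 0.94 FPKM under PEG (log2 change -2.64 ± 0.6, edgeR adjusted p = 0.00653). Of 60 homeobox and HD-ZIP factors, 1 was higher and 14 lower (1 and 22 with library totals, and 0 and 5 from the 6 libraries alone). Each library left out in turn gave 1 to 2 and 7 to 12, fewest without PEG library 2, and the length trend removed gave 1 and 11. ATHB-6-like (ncbi_8284910), whose Arabidopsis namesake answers to abscisic acid, was among the lower ones, from 108 ± 49.5 to 22.1 ± 8.82 FPKM (-1.85 ± 0.44). The 30 GRAS factors, the family of SHORT-ROOT, SCARECROW and the DELLA proteins, had 2 higher and 8 lower (0 and 12 with library totals, and 0 and 3 from the 6 libraries alone). Without the length trend the split was 5 and 4, and with 1 library left out it was 0 to 4 and 4 to 8, with the fewest calls without control library 1 or PEG library 3.

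Hormone genes were lower more often than higher for cytokinin, gibberellin and auxin. Of 35 cytokinin genes 1 was higher and 8 lower (0 and 14 with library totals, and 1 and 4 from the 6 libraries alone). The split was 0 and 7 with the length trend removed and 0 to 2 and 5 to 7 over the libraries left out in turn, fewest without control library 2 or PEG library 2. Histidine kinase 1 (ncbi_8260674) stood at 15.5, 26.4 and 15 FPKM in the control libraries and 2.41, 2.04 and 3.25 FPKM in the PEG libraries (log2 change -2.44 ± 0.31, edgeR adjusted p = 0.000228), and its Arabidopsis namesake is studied as an osmosensor and not as a cytokinin receptor. Histidine kinase 2 (ncbi_8273557), named like a cytokinin receptor of Arabidopsis, fell from 4.39, 6.24 and 6.04 FPKM in the controls to 1.57, 1.02 and 1.69 FPKM under PEG (-1.53 ± 0.32). Adenylate isopentenyltransferase 5 (ncbi_8280935), of the family that makes cytokinins, fell from 15.5 ± 5.2 to 3.73 ± 1.41 FPKM (-1.61 ± 0.46), and its call was lost without control library 1, control library 3, PEG library 2 or PEG library 3. The exception, response regulator ARR5-like (ncbi_8258131, 1.56 ± 0.55), a feedback brake on cytokinin signalling, lost its call with library totals, without the length trend and when any of the 6 libraries was left out. Gibberellin genes had 3 higher and 7 lower of 20 (2 and 9 with library totals, and 1 and 5 from the 6 libraries alone). Removing the length trend gave 2 and 6, and leaving out 1 library gave 0 to 3 and 5 to 7, the fewest without control library 1. Genes of the growth-repressing DELLA proteins moved apart. DELLA protein SLR1-like (ncbi_8276206) had 25.7, 21.7 and 37.6 FPKM without PEG and 5.15, 4.15 and 4.17 FPKM with it (log2 change -2.22 ± 0.47, edgeR adjusted p = 0.00432), with no library of 1 group near the other. DELLA protein GAIP-B (ncbi_8262526) had 14.5, 21.6 and 21.4 FPKM without PEG and 30.1, 18.4 and 28.8 FPKM with it. These FPKM values overlap, and its call (0.86 ± 0.24) was lost with library totals and without control library 1, PEG library 1 or PEG library 3. DELLA protein GAI (ncbi_8258926) fell (-0.79 ± 0.27), a call lost without the length trend and when any of the 6 libraries was left out.

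Auxin response genes had 4 higher and 11 lower of 62 (2 and 19 with library totals, and 2 and 7 from the 6 libraries alone). Over the libraries left out in turn the list had 2 to 4 and 6 to 11, the fewest without PEG library 2, and it had 4 and 5 without the length trend. Auxin response factor 9 (ncbi_8286247) stood at 36.4, 50.4 and 46 FPKM in the control libraries and 8.53, 11.6 and 9.7 FPKM in the PEG libraries (log2 change -1.72 ± 0.24, edgeR adjusted p = 0.00041), and the repressor IAA26-like (ncbi_8273774) fell from 58.2, 70.4 and 61.1 FPKM in the controls to 12.8, 16.1 and 18.9 FPKM under PEG (log2 change -1.55 ± 0.21, edgeR adjusted p = 0.000318). A GH3 family gene (ncbi_8263567), of enzymes that join auxin or jasmonate to amino acids, rose from 80.6 ± 22.7 to 145 ± 13.3 FPKM (1.28 ± 0.25). Ethylene genes had 3 higher and 2 lower of 22 (1 and 6 with library totals, and 1 and 0 from the 6 libraries alone). In the fit without the length trend the split was 6 and 0, and it was 1 to 3 and 0 to 2 with 1 library left out, fewest without PEG library 2. The 3 genes named CTR1, for the negative regulator of ethylene signalling, did not move together. Of these, ncbi_8283691 rose (1.67 ± 0.57) while ncbi_8277895 (-1.08 ± 0.31) and ncbi_8272581 (-0.76 ± 0.23) fell. The call of each of the 3 was lost without PEG library 1 and without PEG library 2, and each also without at least 1 control library. That of the first was further lost without PEG library 3 and with library totals, and those of the others without the length trend. BRI1 kinase inhibitor 1-like (ncbi_8278894), a brake on the brassinosteroid receptor, fell from 6.37 ± 2.33 to 0.737 ± 0.472 FPKM (-2.66 ± 0.46). Jasmonate genes had 5 higher and 5 lower of 26 (4 and 7 with library totals, and 3 and 2 from the 6 libraries alone). Leaving out 1 library in turn moved this to 4 to 7 and 1 to 6, fewest without PEG library 2, and removing the length trend to 5 and 5. The reductase 12-oxophytodienoate reductase 1-like (ncbi_8263248) rose from 8.77, 3.69 and 5.71 FPKM in the controls to 14.7, 12.2 and 24.1 FPKM under PEG (log2 change 1.93 ± 0.35, edgeR adjusted p = 0.00206). A linoleate 13S-lipoxygenase 2-1-like gene (ncbi_8287572) fell from 29.7 ± 33.8 to 1.39 ± 1.4 FPKM (-3.94 ± 1.01). Its call was lost without control library 1, PEG library 2 or PEG library 3. A probable linoleate 9S-lipoxygenase 5 (ncbi_8258686) fell from 14 ± 4.91 to 1.81 ± 0.973 FPKM (-2.5 ± 0.49). Product names placed these genes here, and their part in jasmonate synthesis was not tested.

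**Figure D3:**
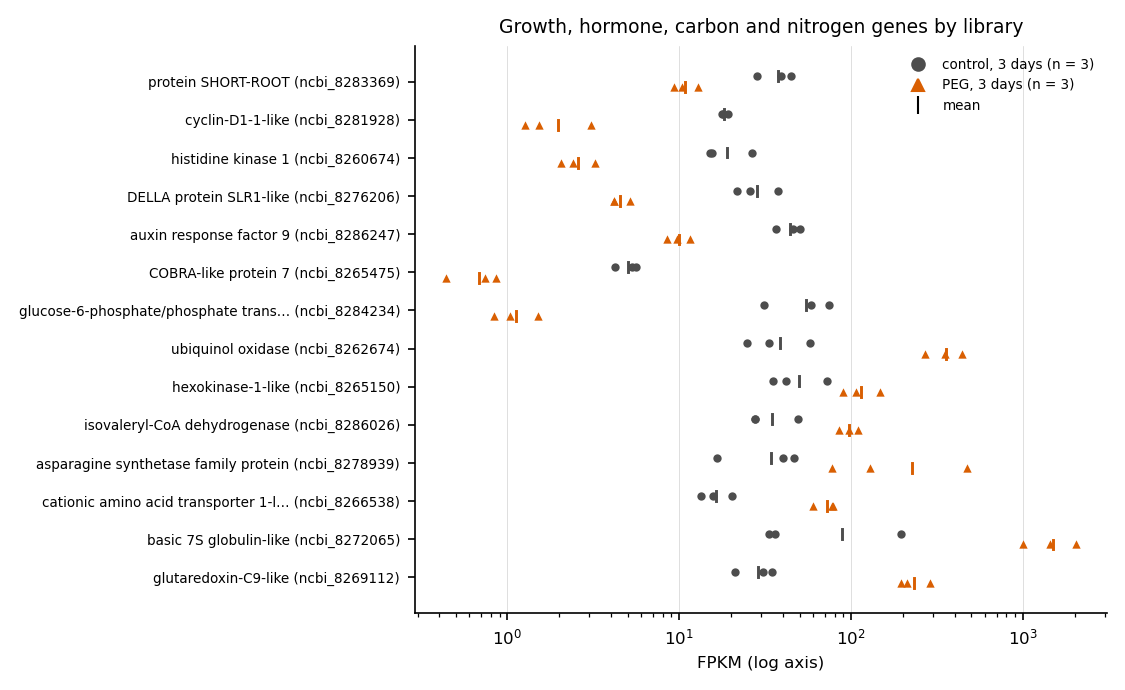
The FPKM of each library on a log axis for 14 named genes of growth, hormone, carbon, nitrogen and redox function, with circles for controls, triangles for PEG libraries and a bar for each mean. The groups do not overlap for any of them, which the rule for naming them required. SHORT-ROOT, cyclin-D1-1-like and auxin response factor 9 were lower and ubiquinol oxidase, asparagine synthetase and glutaredoxin-C9-like higher under PEG.

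Receptor-like kinases at the cell surface gave the largest number of lower genes of the 57 lists, being 1 of the largest lists. By share 27.3% of them were lower beside 11.4% of all genes, and gibberellin genes (35.0%) and MATE and WAT1 transporters (33.3%) had larger shares. Of 388 receptor-like kinases tested, 15 were higher and 106 lower (9 and 161 with library totals, and 9 and 46 from the 6 libraries alone). Their median log2 change was -0.69 beside -0.08 for all genes. With the length trend removed 22 and 76 were called, and 8 to 26 and 62 to 114 with each library left out, fewest without PEG library 2. The list has a median length of 2525 bases against 1662 bases for all genes. HSL1 (ncbi_8281370), named for a relative of the Arabidopsis HAESA receptor, stood at 7.07, 2.96 and 5.22 FPKM in the control libraries and 0.11, 0.3 and 0.37 FPKM in the PEG libraries (log2 change -3.77 ± 0.5, edgeR adjusted p = 0.000249). A leucine-rich repeat receptor kinase (ncbi_8260794) fell from 6.55, 17.3 and 12.9 FPKM in the controls to 0.59, 0.61 and 1.22 FPKM under PEG (-3.48 ± 0.44). The 15 that rose included cysteine-rich receptor-like protein kinase 10 (ncbi_8277657, 6.55, 15.2 and 13.1 FPKM in the control libraries and 29.5, 55.7 and 44.5 FPKM in the PEG libraries, 2.33 ± 0.44). NBS-LRR proteins, which sense microbes inside the cell, had 2 higher and 20 lower of 77 (0 and 35 with library totals, and 0 and 8 from the 6 libraries alone). Each library left out in turn gave 0 to 2 and 12 to 19, fewest without PEG library 2, and the length trend removed gave 4 and 12. A probable resistance protein (ncbi_8282914) fell from 10, 18.9 and 9.32 FPKM in the controls to 1.22, 0.66 and 2.56 FPKM under PEG (log2 change -2.67 ± 0.59, edgeR adjusted p = 0.00558).

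Downstream signalling genes moved both ways. Calcium sensors and channels had 12 higher and 18 lower of 124, near the share of all genes (6 and 36 with library totals, and 6 and 2 from the 6 libraries alone). Without the length trend the split was 10 and 6, and with 1 library left out it was 5 to 12 and 7 to 12, with the fewest calls without PEG library 2. CBL-interacting protein kinase 3 (ncbi_8284058), which calcium sensors of the CBL family switch on, had 0.29, 4.38 and 0.27 FPKM without PEG and 17.1, 43.4 and 26.4 FPKM with it (log2 change 4.56 ± 0.91, edgeR adjusted p = 0.00323). It was nearly silent in controls 1 and 3, higher in control 2 and highest in all PEG libraries. A calmodulin gene (ncbi_8258834) stood at 10.9, 5.41 and 6.09 FPKM in the control libraries and 69, 31.4 and 49.3 FPKM in the PEG libraries (log2 change 3.18 ± 0.47, edgeR adjusted p = 0.000477). MAP kinases had 7 higher and 5 lower of 31 (3 and 13 with library totals, and 2 and 2 from the 6 libraries alone). The split was 7 and 2 with the length trend removed and 2 to 9 and 4 to 5 over the libraries left out in turn, fewest without control library 1, control library 3 or PEG library 2. MAP kinase kinase kinase 2 (ncbi_8285896) rose from 2.35, 4.75 and 2.75 FPKM in the controls to 10, 29.4 and 17.6 FPKM under PEG (2.97 ± 0.55), and MAP kinase 9-like (ncbi_8273213) fell from 9.77 ± 1.76 to 2.64 ± 0.616 FPKM (-1.44 ± 0.35). Protein phosphatase 2C 72 (ncbi_8275623), of the family that turns kinases off, fell from 44.3, 102 and 97.3 FPKM in the controls to 10.3, 16.1 and 24.4 FPKM under PEG (log2 change -1.84 ± 0.37, edgeR adjusted p = 0.0032). Of the phosphatases of this family 11.9% were higher, near the share of all genes, and 5.1% lower. These were 7 and 3 of 59 (4 and 19 with library totals, and 3 and 1 from the 6 libraries alone). Removing the length trend gave 7 and 1, and leaving out 1 library gave 4 to 10 and 3 to 6, the fewest without control library 1 or PEG library 2.

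Genes of protein tagging were higher in a larger share than all genes, and proteases were lower more often than higher. F-box and U-box proteins, which choose the targets of ubiquitin ligases, had 59 higher and 22 lower of 243 (34 and 39 with library totals, and 30 and 10 from the 6 libraries alone). Over the libraries left out in turn the list had 33 to 66 and 16 to 22, the fewest without control library 1, and it had 68 and 17 without the length trend. RING and BTB ligases had 60 higher and 22 lower of 281 (32 and 54 with library totals, and 29 and 7 from the 6 libraries alone). In the fit without the length trend the split was 60 and 12, and it was 28 to 62 and 11 to 20 with 1 library left out, fewest without control library 1. The excess of higher over lower genes in both lists turned with library totals, which gave 912 higher and 4159 lower among all genes. Median log2 changes were then -0.10 and -0.09 in the 2 lists, beside -0.52 for all genes. An F-box/kelch-repeat gene like At1g80440 (ncbi_8285757) had 7.33, 17.4 and 8.22 FPKM without PEG and 143, 79.5 and 83.5 FPKM with it (log2 change 3.65 ± 0.82, edgeR adjusted p = 0.00629). That Arabidopsis protein belongs to the KISS ME DEADLY group, which marks cytokinin response regulators for breakdown. E3 ligase RGLG2 (ncbi_8260358) rose from 7.47, 8.5 and 4.93 FPKM in the controls to 24.4, 86.8 and 37.2 FPKM under PEG (3.28 ± 0.43) and RMA3-like (ncbi_8289576) from 77.7 ± 72.6 to 539 ± 283 FPKM (3.24 ± 0.74). An F-box protein (ncbi_8276207) fell the other way, with 25.3, 25.2 and 35.3 FPKM in the control libraries and 0.86, 1.67 and 1.25 FPKM in the PEG libraries (log2 change -4.06 ± 0.45, edgeR adjusted p = 8.45e-05). Of proteasome subunits 9.3% were higher and 2.3% lower, both below the shares of all genes. These were 4 and 1 of 43 (1 and 11 with library totals, and 0 and 0 from the 6 libraries alone). Leaving out 1 library in turn moved this to 1 to 4 and 1 to 2, fewest without control library 1, and removing the length trend to 1 and 0.

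Proteases had 2 higher and 22 lower of 99; their median was -0.66 (1 and 41 with library totals, and 1 and 6 from the 6 libraries alone). With the length trend removed 2 and 13 were called, and 0 to 3 and 9 to 32 with each library left out, fewest without control library 1. Aspartic proteinase nepenthesin-1 (ncbi_8273281) fell from 91, 19.9 and 38.8 FPKM in the controls to 7.06, 2.6 and 1.96 FPKM under PEG (log2 change -3.23 ± 0.7, edgeR adjusted p = 0.00537). Of 11 protease inhibitors tested, 7 were higher and 0 lower (5 and 0 with library totals, and 4 and 0 from the 6 libraries alone). Each library left out in turn gave 4 to 6 and 0, fewest without PEG library 2, and the length trend removed gave 4 and 0. The 3 with the largest changes are alpha-amylase/subtilisin inhibitor-like copies, of which 1 (ncbi_8276942) had 2.81, 0.93 and 0.44 FPKM without PEG and 30.6, 17.2 and 8.1 FPKM with it (4.2 ± 0.94). Such near-identical copies can share reads, so values of single copies are uncertain. Basic 7S globulin-like (ncbi_8272065), a relative of a soybean seed protein with the fold of aspartic proteases, stood at 36.2, 194 and 33.4 FPKM in the control libraries and 1004, 2017 and 1439 FPKM in the PEG libraries (log2 change 4.52 ± 0.74, edgeR adjusted p = 0.000997). Its lowest PEG library was over 5 times its highest control.

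**Figure D4:**
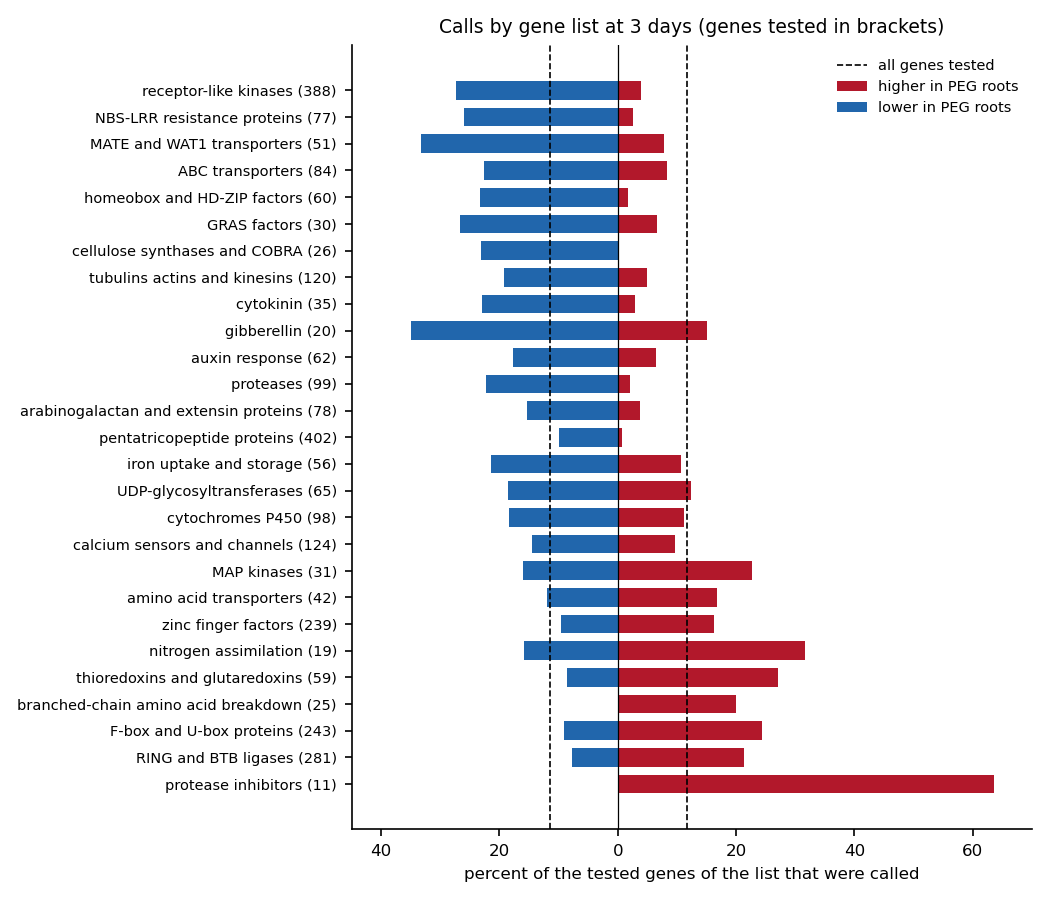
Bars give the percent of the tested genes of each list called higher (right) or lower (left) in PEG roots at 3 days, and dashed lines give the 11.7% and 11.4% of all genes tested. Receptor-like kinases (15 higher and 106 lower of 388) extend to the left, and F-box proteins, RING ligases and protease inhibitors to the right.

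Single steps of carbon and energy metabolism changed by over 2-fold. Of mitochondrial electron transport genes 12.1% were higher, near the 11.7% of all genes, and 1.5% lower, below their 11.4%. These were 8 and 1 of 66 (2 and 3 with library totals, and 2 and 0 from the 6 libraries alone). Without the length trend the split was 4 and 2, and with 1 library left out it was 3 to 9 and 1 to 3, with the fewest calls without control library 1 or control library 2. The strongest member of this list was ubiquinol oxidase (ncbi_8262674), the alternative oxidase that passes electrons to oxygen without pumping protons. It stood at 24.6, 57.7 and 33.4 FPKM in the control libraries and 270, 443 and 350 FPKM in the PEG libraries (log2 change 3.64 ± 0.41, edgeR adjusted p = 8.45e-05), and every PEG library was over 4 times the highest control. Glycolysis had 8 higher and 7 lower of 50 (4 and 16 with library totals, and 2 and 2 from the 6 libraries alone). The split was 8 and 5 with the length trend removed and 4 to 8 and 5 to 10 over the libraries left out in turn, fewest without control library 1. Hexokinase-1-like (ncbi_8265150), the enzyme that phosphorylates glucose, rose from 34.9, 71.8 and 41.7 FPKM in the controls to 147, 107 and 89.9 FPKM under PEG (log2 change 1.65 ± 0.32, edgeR adjusted p = 0.00256), and a phosphoglycerate mutase-like gene (ncbi_8263037) fell from 18.2 ± 3.09 to 3.12 ± 0.365 FPKM (-2.09 ± 0.4). Of citrate cycle genes 6.2% were higher, below the share of all genes. The counts were 2 higher and 0 lower of 32 (1 and 6 with library totals, and 0 and 0 from the 6 libraries alone). Removing the length trend gave 2 and 1, and leaving out 1 library gave 1 to 2 and 0, the fewest without control library 1, control library 3 or PEG library 2.

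Genes that move or split sugars changed singly. Glucose-6-phosphate/phosphate translocator 2 (ncbi_8284234), which brings glucose-6-phosphate into plastids, fell from 58.7, 31 and 74.6 FPKM in the controls to 1.5, 0.83 and 1.03 FPKM under PEG (log2 change -5.17 ± 1.04, edgeR adjusted p = 0.00363). Sugar transport protein 13-like (ncbi_8259103), whose Arabidopsis namesake takes up hexoses at the plasma membrane, had 49, 289 and 66.9 FPKM without PEG and 842, 857 and 439 FPKM with it (log2 change 2.84 ± 0.65, edgeR adjusted p = 0.00699). Control 2 was high there, yet below the lowest PEG library. The bidirectional transporter SWEET17-like (ncbi_8272192) fell from 5.63 ± 0.862 to 0.797 ± 0.309 FPKM (-2.38 ± 0.53), and the list of sugar transporters was split 5 and 4 of 30 (3 and 8 with library totals, and 0 and 2 from the 6 libraries alone). Over the libraries left out in turn the list had 3 to 5 and 3 to 4, the fewest without control library 1, and it had 5 and 3 without the length trend. Alkaline/neutral invertase A (ncbi_8269847), which cleaves sucrose, rose from 7.49, 9.85 and 6.61 FPKM in the controls to 19, 19.7 and 15 FPKM under PEG (1.61 ± 0.35). Inactive beta-amylase 9 (ncbi_8262385), a relative of starch-degrading enzymes that lacks activity in Arabidopsis, rose from 36.1 ± 17.6 to 231 ± 111 FPKM (3.11 ± 0.64).

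Breakdown of branched-chain amino acids feeds electrons into the mitochondrial chain, and 5 of its 25 genes were higher and 0 lower (2 and 4 with library totals, and 2 and 0 from the 6 libraries alone). In the fit without the length trend the split was 5 and 0, and it was 3 to 9 and 0 to 3 with 1 library left out, fewest without control library 1 or control library 3. Isovaleryl-CoA dehydrogenase (ncbi_8286026), of leucine breakdown, stood at 27.7, 48.7 and 27.5 FPKM in the control libraries and 109, 96.5 and 85.2 FPKM in the PEG libraries (log2 change 1.93 ± 0.29, edgeR adjusted p = 0.00055), and the beta 1 subunit of 2-oxoisovalerate dehydrogenase (ncbi_8282158) at 4.39, 10.3 and 5.2 FPKM in the control libraries and 26.9, 16.6 and 14.9 FPKM in the PEG libraries (2.0 ± 0.39). By the rule for naming, the groups did not overlap for either. Fatty acid beta-oxidation and glyoxylate genes had 4 higher and 0 lower of 12 (1 and 1 with library totals, and 1 and 0 from the 6 libraries alone). Leaving out 1 library in turn moved this to 1 to 6 and 0, fewest without control library 1 or PEG library 3, and removing the length trend to 5 and 0.

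The named nitrogen genes include an asparagine-making enzyme that rose and nitrite and glutamate enzymes that fell. Of 19 genes 6 were higher and 3 lower (4 and 5 with library totals, and 3 and 1 from the 6 libraries alone). With the length trend removed 6 and 0 were called, and 2 to 6 and 1 to 3 with each library left out, fewest without control library 1. Asparagine synthetase (ncbi_8278939), which stores nitrogen in asparagine, had 40.1, 46.4 and 16.5 FPKM without PEG and 470, 76.9 and 128 FPKM with it (log2 change 3.16 ± 0.71, edgeR adjusted p = 0.00615), with PEG library 1 far above the other PEG libraries and all 3 above the controls. The asparagine-splitting isoaspartyl peptidase/L-asparaginase 2 (ncbi_8288555) rose from 4.86 ± 5.61 to 37.2 ± 34.6 FPKM (3.38 ± 0.84, lost without control library 1). Ferredoxin-dependent glutamate synthase (ncbi_8270489), which turns glutamine into glutamate, fell from 38.5, 53.9 and 33.1 FPKM in the controls to 15.1, 8.39 and 13.2 FPKM under PEG (log2 change -1.34 ± 0.27, edgeR adjusted p = 0.00344), although not without the length trend. Ferredoxin-nitrite reductase (ncbi_8275300) fell from 322 ± 103 to 121 ± 16.3 FPKM (-0.97 ± 0.27), and that call was lost without control library 2, PEG library 2 or PEG library 3 and without the length trend. Glutamate decarboxylase makes gamma-aminobutyrate, and copy 4 (XLOC_010431, 1.76 ± 0.46, lost without control library 1) rose while copy 1 (ncbi_8258742, -0.58 ± 0.18, lost without the length trend and when any library but PEG library 3 was left out) fell.

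Amino acid transporters had 7 higher and 5 lower of 42 (6 and 7 with library totals, and 6 and 3 from the 6 libraries alone). Each library left out in turn gave 5 to 8 and 4 to 7, fewest without PEG library 2, and the length trend removed gave 9 and 4. Cationic amino acid transporter 1-like (ncbi_8266538) stood at 13.3, 20.3 and 15.6 FPKM in the control libraries and 77.7, 59.8 and 78.6 FPKM in the PEG libraries (log2 change 2.57 ± 0.26, edgeR adjusted p = 5.45e-05). A lysine histidine transporter-like 8 gene (ncbi_8265940) rose from 52.1, 102 and 71.9 FPKM in the controls to 400, 352 and 389 FPKM under PEG (log2 change 2.77 ± 0.34, edgeR adjusted p = 0.000199), while a second gene of that name (ncbi_8267874) fell from 9.04 ± 1.2 to 1.6 ± 0.278 FPKM (-2.06 ± 0.52). Vacuolar amino acid transporter 1 genes likewise parted, with ncbi_8270487 at 2.52 ± 0.44 and ncbi_8281805 at -4.4 ± 0.71. Of 56 genes for iron, zinc and other metals, 6 were higher and 12 lower (1 and 20 with library totals, and 1 and 5 from the 6 libraries alone). Without the length trend the split was 5 and 12, and with 1 library left out it was 1 to 5 and 9 to 13, with the fewest calls without control library 1. Zinc transporter 10 (ncbi_8266080) fell from 80.7, 134 and 124 FPKM in the controls to 19.6, 5.1 and 12.5 FPKM under PEG (log2 change -2.75 ± 0.48, edgeR adjusted p = 0.00151), and ferric reduction oxidase 7-like (ncbi_8286523), which reduces iron for transport, from 9.12 ± 3.33 to 1.04 ± 0.359 FPKM (-2.67 ± 0.4).

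MATE, WAT1 and ABC transporters were lower more often than higher, although for ABC transporters not once the length trend was removed. MATE and WAT1 transporters, which carry small organic molecules and, for WAT1, auxin in Arabidopsis, had 4 higher and 17 lower of 51 (3 and 23 with library totals, and 1 and 5 from the 6 libraries alone). The split was 3 and 17 with the length trend removed and 2 to 4 and 10 to 18 over the libraries left out in turn, fewest without control library 3. A WAT1-related gene like At1g70260 (ncbi_107262227) went from 53.7, 16.8 and 23 FPKM in the controls to 0.67, 0.15 and 1.21 FPKM under PEG (log2 change -5.02 ± 0.92, edgeR adjusted p = 0.00209), and another like At4g30420 (ncbi_8277244) rose from 23.4 ± 17.2 to 70.1 ± 15 FPKM (2.01 ± 0.42). ABC transporters had 7 higher and 19 lower of 84 (5 and 33 with library totals, and 2 and 8 from the 6 libraries alone). Removing the length trend gave 10 and 9, and leaving out 1 library gave 2 to 10 and 11 to 15, the fewest without control library 1. Pleiotropic drug resistance protein 3-like (ncbi_8269793), of a group that exports defence and wall compounds, had 8.56, 8.43 and 8.01 FPKM without PEG and 59.4, 35.7 and 72.3 FPKM with it (log2 change 3.18 ± 0.42, edgeR adjusted p = 0.000247), and protein 2-like (ncbi_8269647) of the same group fell from 9.63 ± 2.91 to 1.68 ± 0.232 FPKM (-2.07 ± 0.36). Of 31 proton pumps 6 were higher and 1 lower (0 and 8 with library totals, and 1 and 1 from the 6 libraries alone). Over the libraries left out in turn the list had 0 to 4 and 1 to 3, the fewest without PEG library 2, and it had 2 and 1 without the length trend. The lower one was plasma membrane ATPase 4, and those that rose include the vacuolar pyrophosphate-driven pump (ncbi_8263849, 1.33 ± 0.38) and V-type ATPase subunits e1 (ncbi_107262208, 1.32 ± 0.4) and G 1 (ncbi_8260112, 1.23 ± 0.4). Those 3 calls were lost with library totals, without control library 1 and without PEG library 2. The calls of both V-type subunits were also lost without control library 2 or PEG library 1, and that of G 1 without PEG library 3 and without the length trend.

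Enzymes of specialised metabolism moved both ways. Cytochromes P450 had 11 higher and 18 lower of 98 (8 and 29 with library totals, and 5 and 11 from the 6 libraries alone). In the fit without the length trend the split was 11 and 17, and it was 6 to 13 and 14 to 18 with 1 library left out, fewest without control library 1. UDP-glycosyltransferases, which attach sugars to hormones and phenolics, had 8 higher and 12 lower of 65 (7 and 22 with library totals, and 6 and 8 from the 6 libraries alone). Leaving out 1 library in turn moved this to 6 to 8 and 9 to 13, fewest without PEG library 2, and removing the length trend to 8 and 12. UDP-glycosyltransferase 89B1-like (ncbi_8264669) rose from 8.38, 3.18 and 4.99 FPKM in the controls to 30.6, 35.1 and 45 FPKM under PEG (log2 change 3.19 ± 0.59, edgeR adjusted p = 0.00215). Limonoid UDP-glucosyltransferase-like (ncbi_8288107) fell from 378, 132 and 152 FPKM in the controls to 34.2, 15.6 and 18.7 FPKM under PEG (log2 change -2.81 ± 0.56, edgeR adjusted p = 0.00327). CYP82D47-like (ncbi_8260905) rose from 0.48 ± 0.255 to 5.11 ± 3.11 FPKM (3.83 ± 0.71) and CYP749A22-like (ncbi_8264596) fell from 9 ± 3.83 to 0.44 ± 0.272 FPKM (-3.9 ± 0.75). Beta-amyrin synthase-like (ncbi_8259940), which closes the ring system of a triterpene, and squalene synthase-like (ncbi_8284359), which makes its precursor, fell by 1.97 and 0.98 on the log2 scale.

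Redox and transcription genes closed the lists. Thioredoxins and glutaredoxins, small proteins that reduce disulfides, had 16 higher and 5 lower of 59 (10 and 11 with library totals, and 7 and 1 from the 6 libraries alone). Their balance turned with library totals, where their median was 0.08 beside -0.52 for all genes. With the length trend removed 9 and 7 were called, and 7 to 16 and 1 to 4 with each library left out, fewest without control library 1. Glutaredoxin-C9-like (ncbi_8269112) stood at 21, 30.5 and 34.6 FPKM in the control libraries and 210, 286 and 195 FPKM in the PEG libraries (log2 change 3.44 ± 0.34, edgeR adjusted p = 5.45e-05). In Arabidopsis glutaredoxins of this class bind TGA factors, and TGA2 (ncbi_8271908) fell from 34.5, 30.7 and 34 FPKM in the controls to 6.34, 2.41 and 7.59 FPKM under PEG (log2 change -2.17 ± 0.33, edgeR adjusted p = 0.000647). A thioredoxin h gene (ncbi_8280705) rose from 9.47 ± 8.67 to 89.5 ± 16.6 FPKM (3.67 ± 0.82). Zinc finger factors had 39 higher and 23 lower of 239 (24 and 63 with library totals, and 20 and 8 from the 6 libraries alone). Their balance also turned with library totals, where their median was -0.50, near that of all genes. Each library left out in turn gave 22 to 46 and 15 to 23, fewest without control library 1, and the length trend removed gave 44 and 16. C2H2-type zinc finger protein 1 (ncbi_8265993) had 21.9, 58.7 and 59 FPKM without PEG and 312, 531 and 332 FPKM with it (log2 change 3.51 ± 0.53, edgeR adjusted p = 0.000601). Pentatricopeptide proteins, which process organelle RNA, had 3 higher and 40 lower of 402, a smaller share than all genes (1 and 124 with library totals, and 1 and 3 from the 6 libraries alone). Without the length trend the split was 9 and 13, and with 1 library left out it was 1 to 6 and 9 to 39, with the fewest calls without control library 1. Translation factors and tRNA ligases had 15 higher and 6 lower of 148 (6 and 44 with library totals, and 4 and 1 from the 6 libraries alone). The split was 20 and 3 with the length trend removed and 7 to 20 and 2 to 8 over the libraries left out in turn, fewest without control library 1 or PEG library 2. RNA helicase and splicing genes had 33 higher and 16 lower of 207 (11 and 45 with library totals, and 5 and 6 from the 6 libraries alone). Removing the length trend gave 35 and 8, and leaving out 1 library gave 15 to 38 and 8 to 16, the fewest without control library 1 or PEG library 2. Both balances turned with library totals, where the medians were -0.29 and -0.42 beside -0.52 for all genes. Defence proteins had 9 higher and 6 lower of 69 (7 and 8 with library totals, and 6 and 3 from the 6 libraries alone). Over the libraries left out in turn the list had 5 to 12 and 3 to 10, the fewest without control library 1, and it had 6 and 7 without the length trend.

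Some genes were close to silent in 1 group. Among called genes with described products and no overlap, 13 had at most 3 counts in every control library and 71 at most 3 in every PEG library. Secoisolariciresinol dehydrogenase-like (ncbi_8286003), of lignan synthesis, had 8 counts over the 3 controls and 235 over the 3 PEG libraries. A gene whose best hit is vitellogenin-2-like (ncbi_8287503), an animal yolk protein name, had 3 and 74, transcription factor HBP-1b(c38)-like (ncbi_8288075) 3 and 92, and dCTP pyrophosphatase 1 (ncbi_8284483) 5 and 92. In the other direction protein ABIL2-like (ncbi_8286254), whose family joins the actin-organising SCAR/WAVE complex in Arabidopsis, had 160 counts in controls and 3 under PEG. Trans-resveratrol di-O-methyltransferase-like (ncbi_8266796) had 161 and 2, with control library 2 at 0.18 FPKM against 9.11 and 5.13 FPKM in the other controls, and disease resistance response protein 206-like (ncbi_8287703) 87 and 3. Cyclin-dependent kinase inhibitor 1C (ncbi_8288951), named for a brake on the cell cycle, had 85 and 5. No fold is given at such counts.

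The effect at 3 days was compared with that at 7 days, each against untreated roots of its own day, so the 2 effects share no library. At 7 days 417 genes were higher (2.59%) and 235 lower (1.46%), 652 together (4.05%). Of the genes higher at 3 days, 292 were higher at 7 days too, 1 was lower and 1737 kept their sign, and their median log2 change went from 1.4 to 0.73. Of those lower at 3 days, 142 were lower at 7 days, 2 were higher and 1627 kept their sign, with medians of -1.5 and -0.58. Because the genes were chosen at 3 days, the smaller medians at 7 days are a description. At 7 days the highest KEGG terms above had medians of 2.24 (antenna proteins, 11 higher and 0 lower), 1.98 (photosynthesis, 20 and 0) and 0.0 (ribosome). Diterpenoid biosynthesis had -0.36, alpha-linolenic acid 0.19, arachidonic acid 0.12 and porphyrin and chlorophyll metabolism 0.38, and autophagy 0.23. Leaf markers had 2.22 (11 and 0). Of antenna and photosynthesis genes 0 passed the test of the difference between days. The difference of the effects itself passed the test for 16 genes higher at 3 days (0.0995%) and 22 lower (0.137%), 38 in all (0.236%), with edgeR. DESeq2 called 111 and 138. Over the 12 libraries left out in turn the numbers ran from 6 to 26 and from 8 to 23. Among the libraries of 3 days they were 7 and 13 without control library 1, 26 and 20 without control library 2 and 6 and 10 without control library 3. Among those of 7 days they were 6 and 8 without control library 1, 13 and 12 without control library 2, and 7 and 14, 8 and 9, and 9 and 10 without PEG libraries 1, 2 and 3.

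**Figure D5:**
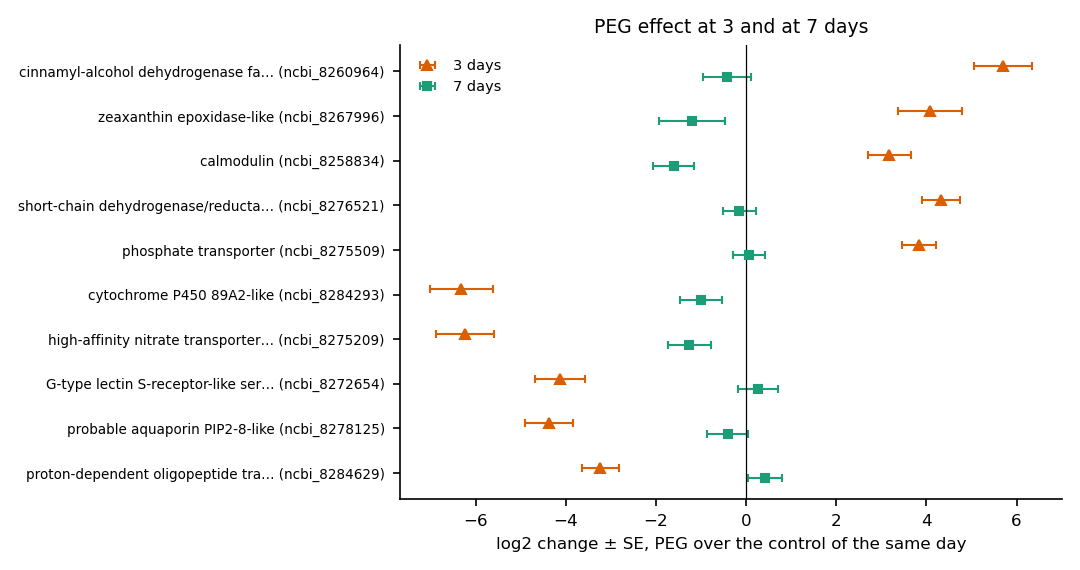
Points give the fitted log2 change ± SE of PEG over the control of the same day at 3 days (triangles) and 7 days (squares), for the 5 genes per direction with the largest called difference between days. All 10 lie beyond 3 on the log2 scale at 3 days and within 1.61 of 0 at 7 days.

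The genes with the largest differences between days changed at 3 days and had no called change at 7 days. A cinnamyl-alcohol dehydrogenase family gene (ncbi_8260964), of the enzymes that make lignin alcohols, had 5.23, 6.17 and 7.29 FPKM without PEG and 257, 212 and 251 FPKM with it. Its PEG effect was 5.7 ± 0.64 at 3 days and -0.43 ± 0.53 at 7 days, a difference of 6.13 ± 0.81 (edgeR adjusted p = 0.00498). A short-chain dehydrogenase/reductase gene (ncbi_8276521) had 26.7, 16.6 and 21.4 FPKM without PEG and 277, 217 and 464 FPKM with it (4.32 ± 0.42), against -0.15 ± 0.37 at 7 days. The calmodulin gene named above had -1.61 ± 0.46 at 7 days (difference 4.79 ± 0.65, edgeR adjusted p = 0.00498), so that its estimate changed sign, the value at 7 days not being called. Among the losses, a G-type lectin receptor kinase gene (ncbi_8272654) went from 8.28, 7.82 and 5.48 FPKM in the controls to 0.2, 0.33 and 0.36 FPKM under PEG (-4.13 ± 0.55), against 0.26 ± 0.44 at 7 days (difference -4.39 ± 0.7, edgeR adjusted p = 0.0119). A proton-dependent oligopeptide transport gene (ncbi_8284629) fell from 87.4, 136 and 179 FPKM in the controls to 4.36, 16.5 and 10.8 FPKM under PEG at 3 days (-3.23 ± 0.41) and stood at 0.42 ± 0.37 at 7 days.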

How the data were processed

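Total RNA of castor root systems was extracted with Trizol and made into mRNA libraries, per the labels' protocols. The authors deposited estimated counts and FPKM (fragments per kilobase, scaled to library depth) per gene for 18 libraries, per the file headers. Which aligner, counter and genome build they used is not given in the sources used here. FPKM of the 11-day controls were not used, 3 columns in all, because their labels name the same column for more than 1 sample. Estimated counts were rounded to whole numbers.

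Genes passing filterByExpr (minimum count 10, total 15) were fitted in R 4.3.3 with edgeR 4.0.16 (TMM, robust quasi-likelihood, 1 mean per group, all 18 libraries), with Benjamini-Hochberg adjustment over the 16085 genes and a threshold of 0.05. Standard errors are the size of the log2 change over the root of F, and approximate. The alternatives used DESeq2 1.42.0 and its size factors, library totals, no filter, the 6 libraries of 3 days, a replicate block, limma 3.58.1 on log2(FPKM + 1) and log2(FPKM + 0.1) of genes reaching 1 FPKM in 3 libraries, a threshold of 0.01, removal of a lowess trend with gene length, and each library left out. The fit was also run on simulated counts with known changes as a check of the code, and the outcome of that run is not given here. An exact permutation test of 3 against 3 cannot go below p = 0.1 and was not used.

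Members and lists were chosen with earlier results of these data known, and of the 57 lists 4 (defence, resistance, proteasome and translation products) were trimmed by product name after values had been seen. Lists were matched to product names, which are mostly best hits in other species (10827 from Jatropha curcas), and a gene can be in several lists. Named genes were called, had a described product and did not overlap in TMM-scaled counts. They were the 10 largest gains and losses of FPKM, ranks 9 to 18 by log2 change, up to 3 per direction in each list with a mean of at least 5 FPKM in 1 group, up to 6 per direction close to absent in 1 group, and 5 per direction for the difference between days. Not all of them are printed. The most abundant transcript was named for its rank after its values were seen.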

Additional observations from a re-analysis of the deposited data

Results flagged for a closer look

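For 10 genes the PEG effect at 3 days differed from that at 7 days by the edgeR test of the difference itself, and these are the largest such differences per direction among genes with at least 5 FPKM in 1 group. Differences are log2 effects at 3 days minus those at 7 days. The cinnamyl-alcohol dehydrogenase family gene (ncbi_8260964) differed by 6.13, the zeaxanthin epoxidase-like gene (ncbi_8267996) by 5.28, calmodulin (ncbi_8258834) by 4.79, the short-chain dehydrogenase/reductase gene (ncbi_8276521) by 4.47 and a phosphate transporter (ncbi_8275509) by 3.77. In the other direction the cytochrome P450 89A2-like gene (ncbi_8284293) differed by -5.32, high-affinity nitrate transporter 2.1-like (ncbi_8275209) by -4.98, the G-type lectin receptor kinase RLK1 gene (ncbi_8272654) by -4.39, aquaporin PIP2-8-like (ncbi_8278125) by -3.96 and the oligopeptide transport gene (ncbi_8284629) by -3.65. The P450 89A2-like gene had 224 counts over the 3 controls and 2 over the 3 PEG libraries of 3 days, so its fitted difference depends on the prior count.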

How the results depend on the processing

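With TMM 1883 genes were higher and 1828 lower at 3 days. A threshold of 0.01 gave 735 and 698, library totals 912 and 4159, the 6 libraries of 3 days alone 682 and 603, limma on log2(FPKM + 1) 946 and 3947, and limma on log2(FPKM + 0.1) 912 and 4131. FPKM carry library totals, and the last of these settings moved the median of all genes to -0.50. Leaving out 1 library gave 885 to 1970 higher and 1015 to 1991 lower genes. DESeq2 (2402 and 2148), DESeq2 size factors (2021 and 1692), no filter (1764 and 1731) and removal of the length trend (1820 and 1356) stayed within 1.5 times. Those are counts, and the genes called can differ. With the length trend removed, 1387 of the higher genes (73.7%) and 1164 of the lower genes (63.7%) kept their call. The 295 named genes were chosen as called and without overlap, and none reversed under these alternatives. Of them 114 lost their call without a library and 38 with library totals. For the difference between days, DESeq2 gave 111 higher and 138 lower genes against 16 and 22, and leaving out 1 library gave 6 to 26 and 8 to 23.

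Same-numbered control and PEG libraries correlated in their deviations from group means at 0.62, 0.50 and 0.08 at 3 days. At 7 days the values were 0.05, 0.50 and -0.23. At 3 days libraries 1 and 2 of both groups correlated best with their own number. So did control library 3, at 0.08, whereas PEG library 3 correlated at 0.12 with control library 2. Deviations from a mean of 3 libraries cannot settle whether the numbers pair the libraries, and the main fit took them as unpaired. The replicate block gave 2104 higher and 2142 lower genes at 3 days, and 35 and 30 for the difference between days.

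With 3 libraries a group and 8131990 to 10817476 counts, genes of few counts had wide errors. The median SE of the called genes was 0.36. Causes of these dependences were not tested.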
